A study of Mus musculus with 44 samples.

Results

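The 591 peaks described here are sites of open chromatin in the inner cell mass (ICM) of mouse blastocysts that were less accessible without Oct4 and not without Sox2. They were chosen by their measured values among 152393 peaks of 200 bp: the mean log2 accessibility of *Pou5f1*-KO minus Ctrl was at most -1.2 in both early and late ICM, and that of *Sox2*-KO minus Ctrl was above -0.3 in both. The mirrored rule gave 52 peaks lost without Sox2 only, and 1910 peaks were lost at -1.2 or below in both knockouts at both stages. Accessibility is given throughout as rlog, a log2 value of Tn5 insertions per peak that the authors scaled for depth and shrank at weak peaks. A negative difference means less accessible chromatin in the KO, and differences at weak peaks are understated.

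ATAC-seq was carried out on 44 libraries in 12 groups. *Pou5f1* KO and Ctrl embryos were sampled as morulae at E2.75 and late morulae at E3.25, with 3 libraries per group, and KO and Ctrl embryos of the *Pou5f1* and the *Sox2* line as early ICM at E3.75 and late ICM at E4.5, with 4 libraries per group. Each library was a pool of 20 to 40 embryos or ICMs, and the strain is given as B6C3F1. All groups carried a maternal deletion made by Zp3-Cre, which acts in the oocyte, on a floxed allele of the line's own gene. KO embryos had in addition a mutated paternal allele, marked by the reporter mKO2 at *Pou5f1* or EGFP at *Sox2*, and Ctrl embryos had an intact paternal allele, so that Ctrl is not wildtype. The ICM embryos were cultured with 1 µM of the MEK inhibitor PD0325901 and freed of trophectoderm by immunosurgery, whereas morulae were whole embryos, and stage and treatment cannot be told apart when ICM is set beside morula. No *Sox2*-KO morulae were analysed here.

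Oct4, encoded by *Pou5f1*, is a POU-domain factor that binds an octamer in DNA, and Sox2 is an HMG-box factor that binds a shorter word. At many enhancers of pluripotent cells both bind side by side on a composite of their words. Oct4 can also bind the octamer alone or as a dimer on palindromes, and it is present in the embryo before the blastocyst forms, at a time when Sox2 begins to rise in inner cells.

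The windows that carry the strongest losses are shown first, to let the words be seen in place. All are the plus strand of GRCm38, and capitals mark the best match to the OCT-SOX composite at 3 mismatches or fewer, or, where there was none, to the octamer at 1 mismatch or fewer. The 3 members with the largest mean loss in *Pou5f1*-KO ICM, among those with no library overlap, lie in an intron of *Macrod2*, 67905 bp upstream of *Asph* and in an intron of *Tbx15*.
Macrod2, chr2:141417234-141417433: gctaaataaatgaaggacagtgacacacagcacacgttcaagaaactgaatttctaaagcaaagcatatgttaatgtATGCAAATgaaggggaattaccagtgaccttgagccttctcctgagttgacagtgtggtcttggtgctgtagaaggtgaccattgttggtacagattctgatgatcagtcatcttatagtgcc
Asph, chr4:9737150-9737349: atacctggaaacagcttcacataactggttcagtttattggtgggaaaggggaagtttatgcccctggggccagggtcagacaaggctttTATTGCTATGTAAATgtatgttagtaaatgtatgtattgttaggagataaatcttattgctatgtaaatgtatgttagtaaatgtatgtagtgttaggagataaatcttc
Tbx15, chr3:99263729-99263928: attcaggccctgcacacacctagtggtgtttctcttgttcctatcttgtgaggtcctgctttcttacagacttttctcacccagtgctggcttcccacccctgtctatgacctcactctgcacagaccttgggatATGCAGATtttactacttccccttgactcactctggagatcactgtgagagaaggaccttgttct

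The *Macrod2* window held an octamer without mismatch and no composite. The *Asph* window held 2 composite matches, each at 3 mismatches, the second in a repeat of the same stretch. In the *Tbx15* window only an octamer at 1 mismatch was found.

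The next windows are the first members within 10 kb of a gene of the lists used below that overlap no exon. The first lies in an intron of *Esrrb*, a nuclear receptor of the naive pluripotency network, the second in an intron of *Cdx2*, a homeobox factor of the trophectoderm, and the third in an intron of *Ctbp2*, a transcriptional corepressor.
Esrrb, chr12:86450999-86451198: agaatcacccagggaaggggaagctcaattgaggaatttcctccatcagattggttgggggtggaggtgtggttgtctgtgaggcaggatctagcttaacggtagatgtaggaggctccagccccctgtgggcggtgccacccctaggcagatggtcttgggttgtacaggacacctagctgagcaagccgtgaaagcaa
Cdx2, chr5:147304421-147304620: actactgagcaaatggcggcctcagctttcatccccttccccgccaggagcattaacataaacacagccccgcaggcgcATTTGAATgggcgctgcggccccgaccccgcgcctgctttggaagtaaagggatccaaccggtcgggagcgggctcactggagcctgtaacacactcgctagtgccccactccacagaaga
Ctbp2, chr7:133100508-133100707: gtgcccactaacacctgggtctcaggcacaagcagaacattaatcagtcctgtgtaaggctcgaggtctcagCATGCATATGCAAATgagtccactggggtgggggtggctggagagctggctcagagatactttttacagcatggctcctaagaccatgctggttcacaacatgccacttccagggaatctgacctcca

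The *Esrrb* window held neither word. The *Ctbp2* window counts as near *Fgfr2* in GENCODE vM21 because some *Fgfr2* transcripts there run on past *Ctbp2*. In RefSeq, *Fgfr2* lies 2833799 bp away from this window.

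The last windows are the members with the closest composites, at 1 mismatch each, and none overlaps an exon. They lie 103575 bp downstream of *H2al2a*, in an intron of *Igfbpl1* and 5984 bp downstream of *Plau*, the gene of urokinase. Repeats take up 100% of the *H2al2a* window, 0% of the *Igfbpl1* window and 22.5% of the *Plau* window.
H2al2a, chr2:17892743-17892942: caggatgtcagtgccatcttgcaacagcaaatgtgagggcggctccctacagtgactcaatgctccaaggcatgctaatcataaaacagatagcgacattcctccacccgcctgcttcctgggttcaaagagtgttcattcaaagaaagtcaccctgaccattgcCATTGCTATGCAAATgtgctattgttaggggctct
Igfbpl1, chr4:45815611-45815810: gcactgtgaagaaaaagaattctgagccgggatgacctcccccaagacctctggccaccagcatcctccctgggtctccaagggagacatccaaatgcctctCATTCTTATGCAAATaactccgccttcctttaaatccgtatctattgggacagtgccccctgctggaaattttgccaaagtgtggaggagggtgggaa
Plau, chr14:20849270-20849469: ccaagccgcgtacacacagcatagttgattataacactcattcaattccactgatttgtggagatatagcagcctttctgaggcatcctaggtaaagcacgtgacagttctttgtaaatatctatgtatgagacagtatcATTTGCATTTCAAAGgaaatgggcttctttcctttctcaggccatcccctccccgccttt

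Few of the 591 peaks held so close a composite. At 2 mismatches or fewer the share was 4.06%, beside 17.7% of the peaks lost in both knockouts and 1.19% of all peaks. The printed windows averaged 2.24, 2.66 and 2.07 over all libraries, below the median of 3.01 over the members. At the *Plau* window the mean rlog was 3.02 in *Pou5f1* Ctrl late ICM against 1.51 in *Pou5f1*-KO, and 3.11 in *Sox2* Ctrl against 2.88 in *Sox2*-KO. A further member with 1 mismatch, in an intron of *Zdhhc14* (chr17:5713143-5713342), averaged 0.51 over all libraries.

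Beside the groups, the library values had medians over all peaks of 2.35 to 2.63, and replicate libraries correlated at 0.762 to 0.908 over all peaks. At a window 380 bp upstream of the *Sox2* start, between the loxP sites of the line, *Sox2* Ctrl libraries ranged from 1.96 to 2.74 in early and from 2.35 to 3.28 in late ICM, and *Sox2*-KO libraries from 0.54 to 1.19 and from 0.49 to 1.05. At the 1 peak over the floxed exons of *Pou5f1*, at exon 3 (chr17:35509358-35509557), KO overlapped Ctrl at every stage, with 2.22 to 3.3 in KO and 2.07 to 2.62 in Ctrl morula and 2.17 to 3.45 and 2.04 to 3 in late ICM. Whether the mKO2 allele lacks these exons is not settled by the sources used here, so that no peak served as a check of the *Pou5f1* genotype. The labels do not say whether libraries of a group came from separate litters, so that the p-values below measure the spread between these pools.

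In the ICM, where the members were chosen, the mean of a *Pou5f1* Ctrl library over the 591 peaks was 3.52 to 3.81 in early and 3.63 to 3.92 in late ICM, and that of a *Pou5f1*-KO library 1.97 to 2.04 and 1.83 to 2.16. In the *Sox2* line, Ctrl libraries averaged 3.48 to 3.66 and 3.58 to 3.99, and *Sox2*-KO libraries 3.48 to 3.91 and 3.69 to 4.08. The *Pou5f1*-KO libraries lay far below all others, and *Sox2*-KO libraries overlapped their Ctrl. These values follow from the rule and are given as a description.

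**Figure D1:**
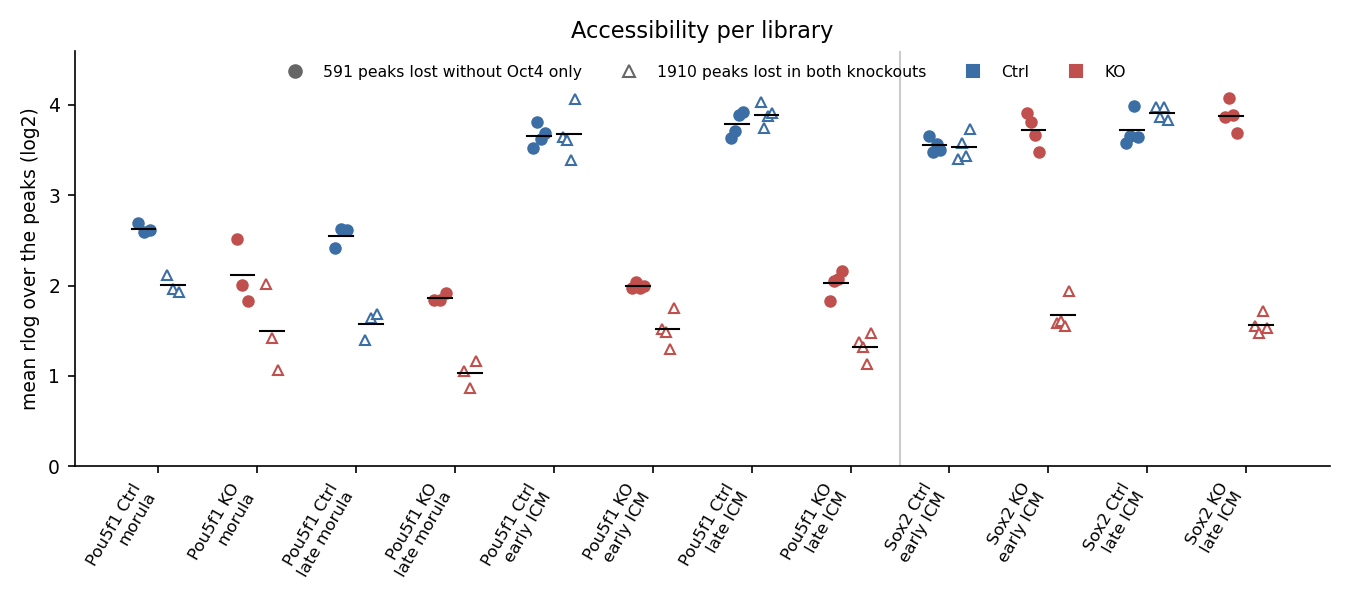
Mean rlog (log2) per library over the 591 peaks lost without Oct4 only (filled circles) and over the 1910 peaks lost in both knockouts (open triangles), by group, with Ctrl in blue, KO in red and a black line at the mean of a group. The *Pou5f1*-KO ICM libraries lie between 1.83 and 2.16 over the 591 peaks and the *Sox2*-KO ICM libraries between 3.48 and 4.08.

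The median difference of *Pou5f1*-KO minus Ctrl over the members was -1.55 in early and -1.66 in late ICM, with extremes of -3.93 and -3.41. The median of *Sox2*-KO minus Ctrl was 0.09 in early and 0.08 in late ICM, and it was above 0 at 348 and 349 members. Of the 591 peaks, 532 were called lower in *Pou5f1*-KO early ICM and 591 in late ICM by limma at an adjusted p under 0.05, where 5.43% and 10.1% of all peaks were. In *Sox2*-KO ICM, 0 members were called lower at either stage by limma, where 1.91% and 4.88% of all peaks were, and at an unadjusted p under 0.05 also 0 were lower, while 25 (4.23%) and 37 (6.26%) were higher, where 6.71% and 9.92% of all peaks were lower and 5.1% and 9.15% higher. Called higher in *Sox2*-KO were 2 members in early ICM and 8 in late ICM, beside 0.238% and 2.71% of all peaks. The rule fixes these counts, and nothing is read from them.

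The median standard error of a difference in ICM was 0.42 over the members, so the rule does not separate all of them firmly. The *Pou5f1*-KO effect was called lower than the *Sox2*-KO effect by limma at 155 members in early and 225 in late ICM, beside 0.372% and 0.554% of all peaks. Both effects were used by the rule, so these counts follow from the choice of members as well and test nothing. With 1 ICM library left out of the means, 487 to 571 of the 591 peaks still met the rule, and 138 met it whichever library was left out. Just inside the *Pou5f1* thresholds lay peaks at -1.2011 and -1.2038 in early and -1.2024 and -1.2039 in late ICM, and just outside -1.1992 and -1.1991, and in late ICM 2 peaks at -1.1995. For *Sox2*-KO the nearest values inside were -0.2986 and -0.2940 in early and -0.2980 and -0.2974 in late ICM, and outside -0.3024 and -0.3028, and -0.3007 and -0.3008.

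**Figure D2:**
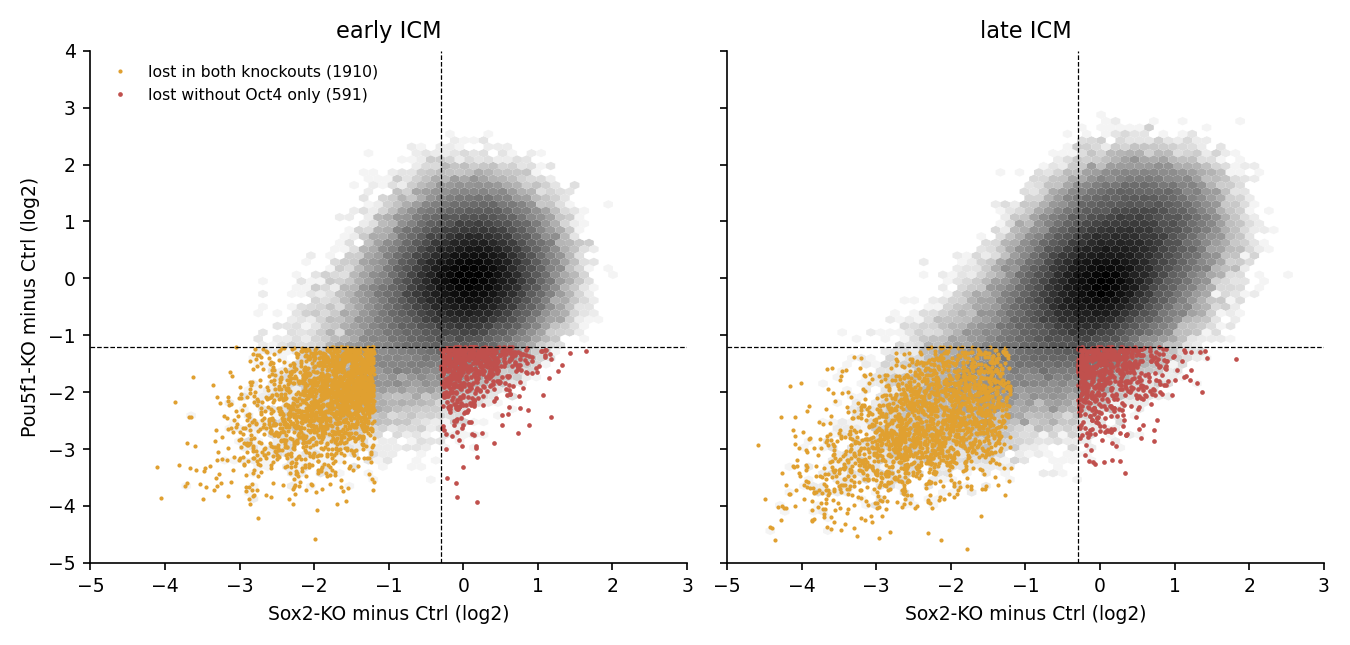
*Pou5f1*-KO minus Ctrl against *Sox2*-KO minus Ctrl (log2 differences of rlog means) in early and late ICM, for all peaks (grey hexagons, darker where more peaks lie, on a log colour scale), peaks lost in both knockouts (orange) and the 591 members (red), with dashed lines at -1.2 and -0.3. The members fill the quadrant below the horizontal and right of the vertical line, where the rule placed them, and adjoin the body of all peaks without a gap.

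Whether these peaks already depended on Oct4 before the blastocyst can be asked in the morula libraries, which the rule did not use. In Ctrl embryos the members were as open at the morula stage as peaks in general: the median rlog over the 591 peaks was 2.50, beside 2.47 over all peaks, and 298 members lay above that median. In Ctrl late morula it was 2.46. The peaks lost in both knockouts had medians of 1.77 in Ctrl morula and 1.39 in Ctrl late morula, and 43.6% of them fell in the lowest 25% of all peaks in Ctrl morula, against 25.2% of the members.

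In the *Pou5f1* line a library's mean over the members was 2.69, 2.59 and 2.61 in Ctrl morula and 2.51, 2.01 and 1.83 in *Pou5f1*-KO morula. In late morula it was 2.42, 2.63 and 2.61 in Ctrl and 1.84, 1.84 and 1.92 in KO. KO lay below Ctrl at both stages without overlap. KO morula library 1 stood apart from the other KO libraries and close to Ctrl, and it did so at the 1910 peaks lost in both knockouts as well, where it averaged 2.02 and the other KO libraries 1.06 and 1.42. KO embryos were recognised by reporter fluorescence, and the genotype of this library was not checked here. The summary of the morula stage and the calls at named peaks there are therefore given with and without it.

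In morula, 24 of the 591 members (4.06%) were called lower in *Pou5f1*-KO by limma, beside 0.185% of all peaks, and 0 were called higher. Of the peaks lost in both knockouts, 37 (1.94%) were called lower. The count rested on single libraries: without KO library 1 it was 67, without KO library 2 or 3 it was 4 or 2, beside 0.0341% and 0.00787% of all peaks, and without Ctrl library 1, 2 or 3 it was 10, 15 or 15, beside 0.0965%, 0.0846% and 0.0951%. The median difference of the members was -0.45, with 470 of 591 below 0 (79.5%), where all peaks had a median of -0.02 and 51.2% below 0. Without KO library 1, 2 or 3 the median was -0.58, -0.37 or -0.34. Every KO library lay below every Ctrl library at 110 members, beside 5.95% of all peaks, which is 18.6% of the members. In either direction, 152 members (25.7%) passed an unadjusted p under 0.05, beside 8.24% of all peaks. Without KO library 1, 67 members (11.3%) were called lower, beside 0.631% of all peaks and 8.22% of the peaks lost in both, 499 (84.4%) lay below 0, beside 52%, the KO libraries lay below every Ctrl library at 242 (40.9%), beside 12.1%, and 184 (31.1%) passed an unadjusted p under 0.05, beside 9.02%.

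In late morula, 68 members (11.5%) were called lower in *Pou5f1*-KO by limma, beside 0.539% of all peaks, and 0 were called higher. Of the peaks lost in both knockouts, 100 (5.24%) were called lower, and of the peaks lost without Sox2 only, none of the 52. The median difference was -0.63, with 472 members below 0 (79.9%), where all peaks had a median of -0.01 and 50.9% below 0. Every KO library lay below every Ctrl library at 230 members (38.9%), beside 8.94% of all peaks, and at both morula stages at 69 members (11.7%), beside 1.34%. Without Ctrl library 2 or 3, or KO library 2, the count of calls was 38, 41 or 44, beside 0.198%, 0.251% and 0.266% of all peaks. Called whichever library was left out were 26 members. The share of all peaks called in that way was not counted and can be at most 0.198%. In either direction, 213 members (36%) passed an unadjusted p under 0.05, beside 8.71% of all peaks.

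**Figure D3:**
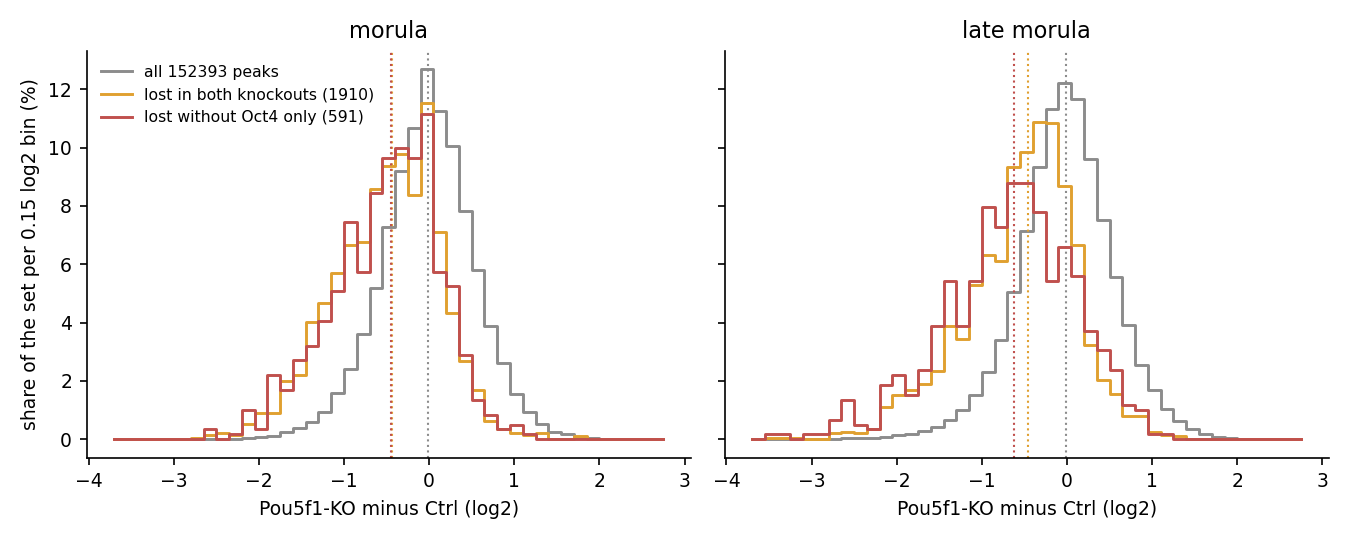
Share of peaks (%) per bin of 0.15 log2 of *Pou5f1*-KO minus Ctrl in morula and late morula, for all peaks (grey), peaks lost in both knockouts (orange) and the 591 members (red), with dotted lines at the medians. The members' distribution is shifted to the left of all peaks at both stages, with medians of -0.45 and -0.63, and in late morula its left tail reaches to -3.43.

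Of the members called, 19 were called lower at both morula stages, beside 0.0814% of all peaks, and 73 at either stage, beside 0.643%. Without KO morula library 1 the 19 became 39, beside 0.192% of all peaks, without KO morula library 2 or 3 they became 4 or 2, beside 0.0164% and 0.00394%, and without Ctrl morula library 1 or 2 they became 8 or 12, beside 0.0394% and 0.042%. The 73 became 98 without KO morula library 1, beside 1.01%, and 47 without Ctrl late morula library 2, beside 0.325%. A larger effect in late morula than in morula could not be shown: limma called 0 members, and 0 of all peaks, for a change of the *Pou5f1*-KO effect between the stages, while 38 members (6.43%) at an unadjusted p under 0.05 had a lower and 7 (1.18%) a higher difference in late morula, beside 1.99% and 1.86% of all peaks. Over the 591 members the differences of the 2 stages, which share no library, had a Spearman correlation of 0.51 across peaks. With the difference in late ICM, which the rule had cut at -1.2, the late morula difference had a Spearman correlation of 0.19.

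Between the stages themselves, the median difference of late morula minus morula in Ctrl embryos was -0.11 over the members, with 55.7% below 0, where all peaks had a median of 0.08 and 45.2% below 0. From Ctrl morula to Ctrl late morula, 19 members were called lower and 11 higher by limma, beside 2.79% and 3.65% of all peaks. In *Pou5f1*-KO embryos, 17 members were called lower and 2 higher from morula to late morula, beside 1.51% and 1.86% of all peaks. The 2 higher peaks lay 11165 bp upstream of *Gna13* (chr11:109351567-109351766, 1.52, adjusted p = 0.0095) and in *Fndc3b* (chr3:27665404-27665603, 1.64, adjusted p = 0.046), and are named because they were few. In Ctrl the 19 became 3 without late morula library 1 and 7 without morula library 1, beside 1.24% and 1.97% of all peaks. They became 9 without morula library 2 or late morula library 3, beside 1.58% and 1.68%. The 11 became 3 without late morula library 3 and 5 without morula library 2, beside 2.18% and 2.19%. They became 7 without late morula library 2, beside 2.06%. In KO the 17 became 4 without morula library 1, beside 0.575% of all peaks. They became 6, 8 or 11 without late morula library 1, 2 or 3, beside 0.308%, 1.38% and 0.883%. The 2 became 0 without late morula library 1, beside 0.373%. They became 1 without morula library 2 or 3, beside 1.09% and 1.48%, and 1 without late morula library 2 or 3, beside 1.23% and 0.999%.

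The calls in late morula were unevenly spread over the members. When the 591 peaks were ranked by their level in Ctrl morula, 49 of the 197 most open (24.9%) were called lower in *Pou5f1*-KO late morula, 13 of the middle 197 (6.6%) and 6 of the 197 least open (3.05%). Of all peaks in the same ranges of Ctrl morula level, 0.94%, 0.44% and 0.271% were called lower, and of the peaks lost in both knockouts in these ranges 19.1%, 4.83% and 0.625%, so that the order was shared with them. The median differences in late morula were -0.95, -0.70 and -0.25 from the most to the least open 197, and in late ICM, where the rule chose them, the middle and the least open had -1.65 and -1.63. The peaks lost in both had medians of -0.96, -0.63 and -0.30 in late morula in the same ranges. The most open 197 had a median rlog of 4.08 in Ctrl morula and 4.45 in Ctrl late ICM, and the least open 197 had 1.26 and 3.17. The least open members were thus weak peaks in Ctrl morula. Their median there lay below the 1.44 of the same peaks in *Pou5f1*-KO late ICM. What part level and rlog shrinkage had in their smaller late morula difference was not tested.

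The member with the largest loss in morula lay 67905 bp upstream of *Asph*, an aspartyl hydroxylase of the endoplasmic reticulum, the window printed above with 2 composites. Its rlog was 5.18, 4.31 and 4.32 in Ctrl morula and 3.03, 1.85 and 1.09 in KO morula, a difference of -2.61 ± 0.41 (SE, adjusted p = 0.00011) and of -3.13 without KO library 1 (adjusted p = 2e-06). In late morula it was 3.62, 4.77 and 4.14 in Ctrl and 1.33, 1.79 and 1.2 in KO, a difference of -2.74 ± 0.41 (adjusted p = 9.8e-06). KO was below Ctrl in every library, and the call held whichever library was left out at either stage. In late ICM, *Pou5f1*-KO libraries stayed at 1.62 to 2.5 and Ctrl libraries were at 4.7 to 5.57, while *Sox2*-KO libraries were at 4.77 to 5.86 and their Ctrl at 4.43 to 5.67.

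A peak 21187 bp upstream of *Epb41l4b*, a FERM-domain protein of the cell cortex, was called at both stages in the same way (chr4:57164525-57164724). It had 4.94, 4.92 and 5.34 in Ctrl morula and 4.17, 2.03 and 1.24 in KO morula, with the highest KO value again in library 1 (-2.59 ± 0.39, adjusted p = 4.6e-05, and -3.44 without that library, adjusted p = 1.3e-09). In late morula it had 5.2, 5.74 and 5.43 in Ctrl and 3.31, 3.61 and 3.14 in KO (-2.10 ± 0.39, adjusted p = 0.00052). These 2 peaks were the only members called in morula under each omission of 1 morula library.

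The largest losses in late morula were at an intron of *Zfp385b*, a zinc finger gene (chr2:77506416-77506615), and 57024 bp downstream of *Plpp3*, a lipid phosphate phosphatase (chr4:105289689-105289888). At *Zfp385b* Ctrl late morula libraries were at 4.58, 4.47 and 4.68 and KO libraries at 1.04, 0.18 and 2.23 (-3.43 ± 0.47, adjusted p = 6e-07). At *Plpp3* they were at 5.06, 5.5 and 5.32 against 2.1, 1.97 and 1.65 (-3.39 ± 0.40, adjusted p = 9.7e-09). Neither was called in morula, where KO library 1 overlapped Ctrl and the other KO libraries lay below every Ctrl library. At *Zfp385b* the *Sox2*-KO late ICM was above its Ctrl, 6.05 to 6.4 against 4.6 to 5.26.

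Further calls in late morula under each omission were an intron of *Noxred1* (chr12:87225726-87225925), with -3.07 ± 0.44 (adjusted p = 2.8e-06) and in morula -2.14 ± 0.44 (adjusted p = 0.0091, 0.25 without KO library 3, 0.00024 without KO library 1), and an intron of *Slc37a2*, a transporter of sugar phosphates (chr9:37248831-37249030). At *Slc37a2* Ctrl late morula libraries had 4.8, 5.75 and 5.75 and KO libraries 2.18, 2.89 and 2.5 (-2.91 ± 0.37, adjusted p = 1e-07). In morula the KO libraries had 4.52, 3.35 and 2.73 against 4.38, 5.12 and 5.23 in Ctrl, which overlapped through KO library 1 and did not pass (adjusted p = 0.08). In late ICM the *Pou5f1*-KO libraries had 1.46 to 2.84 and the *Sox2*-KO libraries 5.72 to 5.85.

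The *Macrod2* intron with the octamer, a gene for an ADP-ribose hydrolase, was at 2.82, 2.92 and 3.4 in Ctrl late morula and at 1.16, 0.63 and 1.04 in KO (-2.10 ± 0.43, adjusted p = 0.003). It opened further in Ctrl ICM, to 4.45 to 5.6 in early ICM, and *Pou5f1*-KO early ICM libraries were at 1.05 to 1.48. In *Sox2*-KO early ICM it was at 5.02 to 5.29. A loss of like size in ICM without any in morula was also found, but at a site weak in Ctrl morula (mean 1.57), where little could be lost. A member 1346 bp upstream of *Tmem39a* (chr16:38557253-38557452) had means of 0.91 in Ctrl and 1.12 in KO late morula, and 5.17 and 2.36 in late ICM, while its neighbour 272 bp upstream of the gene (chr16:38558327-38558526) was at 4.25 and 2.70 in late morula (adjusted p = 0.033, 0.27 without Ctrl library 3) and at 5.49 and 2.28 in late ICM.

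**Figure D4:**
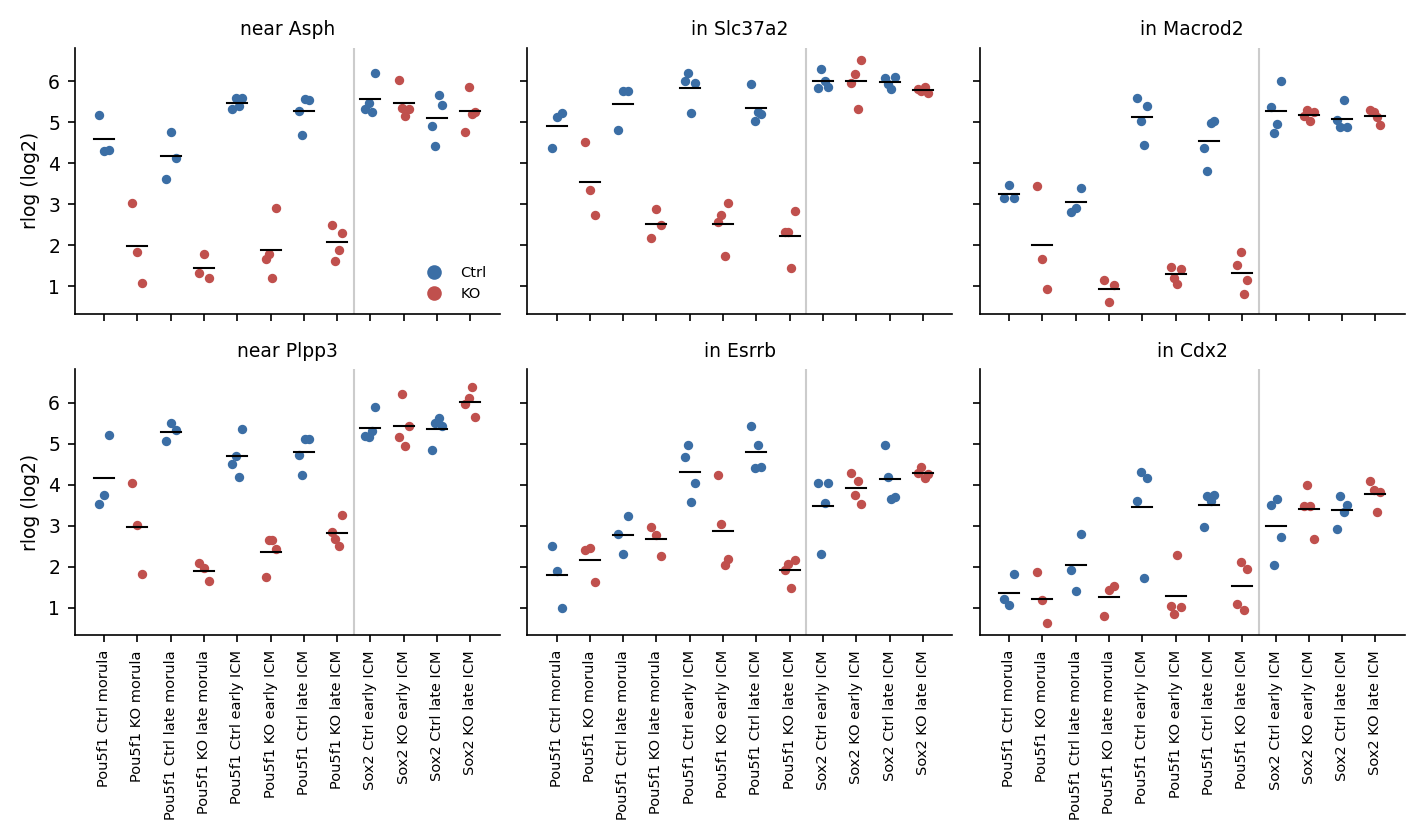
rlog (log2) of 6 members in each library, with Ctrl in blue, KO in red and a black line at the group mean. At the peaks near *Asph* and *Plpp3* and in *Slc37a2* and *Macrod2* the *Pou5f1*-KO late morula libraries lie below all Ctrl libraries, at the peaks in *Esrrb* and *Cdx2* the KO and Ctrl late morula libraries overlap, and the *Pou5f1*-KO late ICM libraries lie below all of their Ctrl in every panel.

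Calls at other named members were lost when 1 library was left out. A peak 8035 bp upstream of *Hopx*, a homeodomain-only protein, had -2.21 in morula (adjusted p = 0.011, 0.27 without KO library 3, 0.00019 without KO library 1) and an intron of *Celf1*, an RNA-binding protein, -2.17 (adjusted p = 0.0029, 0.23 without KO library 3, 0.00019 without KO library 1). A peak 99 bp from the start of *Pnpla6*, a phospholipase, had -2.14 in morula (adjusted p = 0.029, 0.26 without KO library 3, 0.0042 without KO library 1) and -2.18 in late morula (adjusted p = 0.011, 0.3 without Ctrl library 3). A peak 189640 bp upstream of *Mme*, a membrane peptidase, had -1.68 ± 0.35 in late morula (adjusted p = 0.0034, 0.065 without Ctrl library 2), and the printed *Tbx15* window -1.57 ± 0.40 (adjusted p = 0.032, 0.22 without Ctrl library 1). An intron of *Fhit* with a composite at 2 mismatches (chr14:11120476-11120675) had -1.80 in late morula (adjusted p = 0.0021, 0.069 without Ctrl library 2). In morula it had -1.49 (adjusted p = 0.037, 0.49 without KO library 2), and -2.40 without KO library 1 (adjusted p = 4.7e-06).

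The sequence of the windows was not used by the rule. An octamer, ATGCAAAT at 1 mismatch or fewer on either strand, was present in 267 of the 591 members (45.2%), in 47.2% of the peaks lost in both knockouts and in 15.7% of all peaks. An exact octamer was present in 14.9% of the members, 6.96% of the peaks lost in both and 2.39% of all peaks. The composite, CNTTGTNATGCAAAT at 3 mismatches or fewer, was present in 97 members (16.4%), overlapping an octamer match in 67 of them, in 55.9% of the peaks lost in both and in 6.8% of all peaks. Of the members, 192 (32.5%) had an octamer and no composite, against 11.3% of the peaks lost in both and 11.9% of all peaks. Neither word was found in 302 members (51.1%). The shares of members and peaks lost in both were thus near each other for the octamer at 1 mismatch, higher in the members for the exact octamer and lower in them for the composite, and no test was run on these differences.

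The exact SOX word, CATTGT, was present in 11.5% of the members, 21% of the peaks lost in both and 10.9% of all peaks. A tandem of ATGCAT at 2 mismatches or fewer, a palindrome on which Oct4 dimers are known to bind, was present in 27 members (4.57%), 2.3% of the peaks lost in both and 1.04% of all peaks, and in 23 of the 27 it overlapped an octamer match. The best octamer match lay at a median of 37 bp from the centre of the window in members and in peaks lost in both, and at 46 bp in all peaks.

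Words of other factors were searched in the same way. The word bound by ESRRB and NR5A2, CAAGGNCA, was present in 23.5% of the members and 18% of all peaks, and the KLF word, CCNCNCCC, in 40.3% and 39.1%, against 15.7% and 25.3% of the peaks lost in both. The CDX word, TTTATG, was present in 93 members (15.7%), in 8.27% of the peaks lost in both and in 9.7% of all peaks. It overlapped an octamer match in 14 of the 93, and among the 324 members without an octamer it was present in 15.1%, beside 8.87% of all peaks without one. The word of GATA factors, AGATAA, was present in 14.4% of the members and 17.5% of all peaks. For TEAD factors the word CATTCC was found in 20% and 18.9%. T-box factors, with the word AGGTGT, had matches in 15.7% and 20.8%. The TFAP2C word, GCCNNNGGC, was present in 9.48% and 11%. The word of AP-1, TGANTCA, had 7.78% and 7.75%. STAT matches, by TTCCNGGAA, were few, with 1.35% and 0.986%. The core of the CTCF motif was present in 4 members (0.677%), in 0.681% of the peaks lost in both and in 4.6% of all peaks. These are matches of letters in a window, and binding was not measured.

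**Figure D5:**
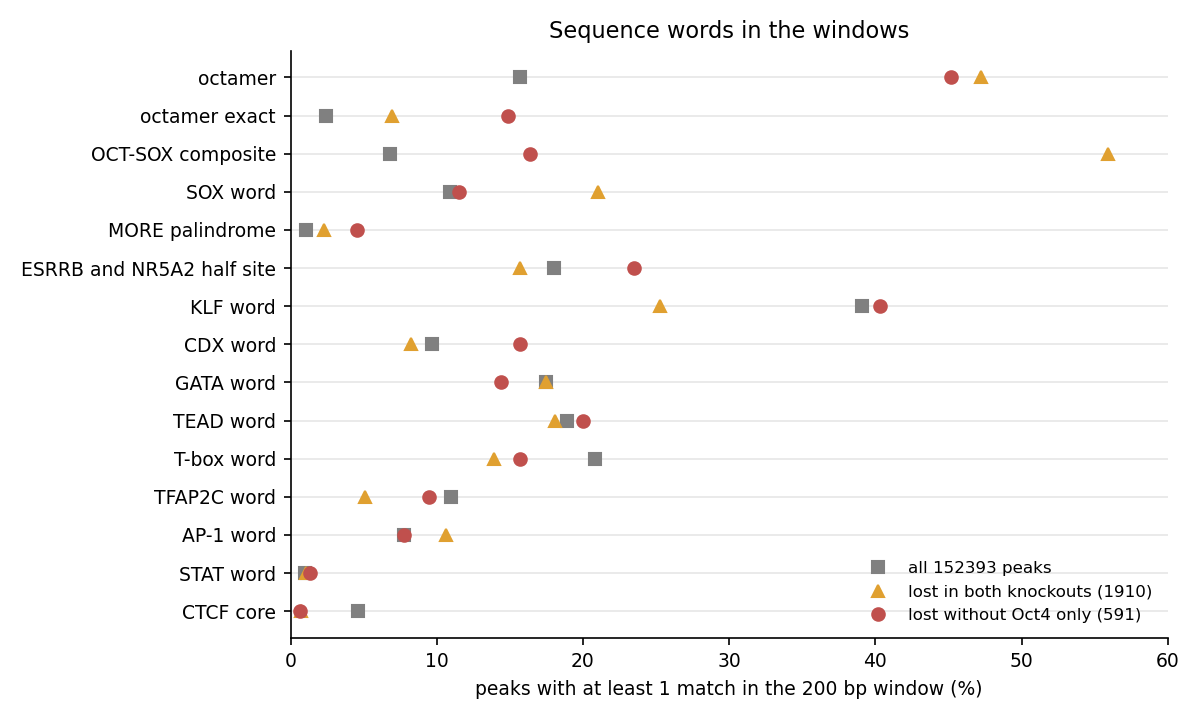
Share of windows (%) with at least 1 match to a word on either strand, for all peaks (grey squares), peaks lost in both knockouts (orange triangles) and the 591 members (red circles). The members lie at 45.2% for the octamer, near the peaks lost in both, and at 16.4% for the OCT-SOX composite, where the peaks lost in both lie at 55.9%.

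In late morula, calls and median losses were compared between members with and without an octamer, as a description. Of the 267 members with one, 53 (19.9%) were called lower in *Pou5f1*-KO late morula, beside 2.04% of all peaks with an octamer, and of the 324 without, 15 (4.63%), beside 0.259%. Of the peaks lost in both, 5.99% with and 4.56% without an octamer were called. The median differences of the members were -0.90 and -0.41. Members with a composite had a median of -0.90, those with an octamer alone -0.86 and those with neither -0.39, and their medians in Ctrl morula were 2.54, 3.00 and 2.08. Word and level in morula thus moved together, and their parts were not tested.

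The members lay mostly away from promoters, as peaks did in general. Of the 591, 281 were intronic and 274 intergenic, 34 (5.75%) lay within 100 bp of a transcription start site, beside 7.77% of all peaks and 0.628% of the peaks lost in both, and the median distance to a start site was 7790 bp. GC content had a median of 48.5%, beside 50% over all peaks and 45% over the peaks lost in both. Windows held 2.83 CpG on average, beside 4.01 and 1.43. Repeats took up a median of 12% of a window, beside 12.5% over all peaks and 33.5% over the peaks lost in both. On all of these measures the members lay nearer to the body of all peaks than the peaks lost in both did, and no test was run on that.

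The strongest peak among the members by rlog over all libraries, after 1 beside *Ftl1-ps1*, lay at the start of *Chil1*, a chitinase-like protein (chr1:134189081-134189280), and held an exact octamer. Its rlog was 5.9 to 6.38 in *Pou5f1* Ctrl late ICM and 3.35 to 5.64 in KO, with the highest KO value close to Ctrl, and 6.49 to 6.86 in *Sox2*-KO. In late morula it was 6.17, 6.09 and 6.27 in Ctrl and 4.9, 4.74 and 4.62 in KO (-1.42 ± 0.31, adjusted p = 0.0067, 0.058 without KO library 3 and 0.054 without Ctrl library 3). Among members within 100 bp of a start site, the largest mean loss in ICM was at *Fn1*, the gene of fibronectin, a matrix protein of the primitive endoderm (chr1:71653110-71653309). It was at 1.22, 0.74 and 1.73 in Ctrl late morula and 1.04, 1.34 and 1.36 in KO, and then at 4.86 to 5.33 in Ctrl and 1.38 to 3.36 in *Pou5f1*-KO late ICM. Its *Sox2*-KO late ICM libraries were at 4.04 to 4.96 and overlapped their Ctrl at 4.18 to 4.72. Starts of *Mlst8*, a subunit of mTOR complexes, and *Sirpa* had differences of -1.97 and -2.19 in late ICM and of 0.14 and -0.20 in late morula.

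Members near genes of known roles were counted by lists, with no share of all peaks for the lists together. By list, members were 0.344% to 2.16% of the nearby peaks, where 0.388% of all peaks were. Within 10 kb of the body of a gene of the 8 lists, 22 members were found, 18 with gene bodies from RefSeq. Of 417 peaks near 35 naive pluripotency genes, 7 (1.68%) were members, where 0.388% of all peaks were, and 12 were lost in both knockouts. They lay at *Esrrb*, *Gdf3*, *Etv5*, *Zfp57* and *Nanog*. The intron of *Esrrb* had 5.44, 4.4, 4.96 and 4.42 in *Pou5f1* Ctrl late ICM and 1.92, 2.07, 1.49 and 2.16 in KO, but 4.16 to 4.44 in *Sox2*-KO against 3.65 to 4.97 in Ctrl. In late morula it had 2.79, 2.32 and 3.24 in Ctrl and 2.98, 2.77 and 2.27 in KO, which overlapped (-0.11, adjusted p = 0.99). *Gdf3*, a TGF-beta family ligand, held 3 members within 3237 bp, with differences of -2.48, -2.08 and -1.53 in *Pou5f1*-KO and -0.11, -0.11 and -0.29 in *Sox2*-KO late ICM. In late morula they had -0.45, -1.08 and -0.73 (adjusted p of 0.92, 0.51 and 0.73). The intron of *Etv5*, an ETS factor, had -1.82 in *Pou5f1*-KO late ICM and 0.49 in KO late morula (adjusted p = 0.9). A peak near *Nanog* (chr6:122715866-122716065) had -1.23 in *Pou5f1*-KO and -0.29 in *Sox2*-KO late ICM, close to both thresholds. Around the naive pluripotency genes, 4 of the 417 peaks were called lower and 1 higher in *Pou5f1*-KO late morula, beside 0.539% and 0.108% of all peaks.

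Peaks of other lineages were members too. Near primitive endoderm genes, 5 of 232 peaks (2.16%) were members, at *Fn1*, *Sparc*, *Pdgfra* and *Hnf4a*, and 1 was lost in both. At *Pdgfra*, a receptor of the primitive endoderm, 2 peaks had -1.25 and -1.24 in *Pou5f1*-KO and 0.06 and 0.36 in *Sox2*-KO late ICM. A peak 768 bp upstream of *Sparc*, a matrix protein, had -2.18 in *Pou5f1*-KO and -0.17 in *Sox2*-KO late ICM, and 0.09 in KO late morula (adjusted p = 0.99). Near trophectoderm genes, 5 of 472 peaks were members, 3 of them only through the long *Fgfr2* transcripts, the others at *Cdx2* and *Tead4*. The intron of *Cdx2* was at 2.97 to 3.76 in *Pou5f1* Ctrl late ICM and at 0.95 to 2.11 in KO, and at 3.34 to 4.1 in *Sox2*-KO. Of genes of other lists, a peak 3950 bp upstream of *Mcl1*, an inhibitor of apoptosis, had 4.46, 3.71 and 2.96 in Ctrl morula and 2.39, 1.53 and 0.86 in KO (-2.12 ± 0.47, adjusted p = 0.019, 0.28 without KO library 3, 0.0027 without KO library 1), and its difference of -1.65 in late morula did not pass (adjusted p = 0.079). Peaks at the starts of *Tet1* (in GENCODE, 11732 bp from the RefSeq gene), a dioxygenase of methylcytosine, and *Uhrf1*, a partner of DNA methyltransferase 1, fell by 1.83 and 1.80 in *Pou5f1*-KO late ICM, which the rule had selected on, and had -0.08 and -0.66 in late morula with adjusted p of 0.99 and 0.78. *Tet3*, a related dioxygenase, *Ldha*, of lactate metabolism, and *Zfp57*, a protector of imprints, had 1 member each.

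The lists also show what else moved in the knockout ICMs. Around trophectoderm genes, 55 of 472 peaks were called higher and 30 lower in *Pou5f1*-KO late ICM by limma, and around primitive endoderm genes 37 of 232 higher and 31 lower, beside 8.19% of all peaks called higher and 10.1% called lower. With gene bodies from RefSeq, in which *Fgfr2* is shorter and which were tried after seeing the data, the trophectoderm list held 231 peaks, of which 32 were called higher and 17 lower in *Pou5f1*-KO and 23 higher in *Sox2*-KO late ICM. In *Sox2*-KO late ICM, 33 of the 472 and 12 of the 232 were called higher, beside 2.71% of all peaks. Around naive pluripotency genes, 106 of 417 were called lower in *Pou5f1*-KO and 43 in *Sox2*-KO late ICM, where 4.88% of all peaks were called lower. Their part in the loss at the members was not tested, and in bulk libraries fewer cells with an open site and less opening per cell cannot be told apart.

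Some members lay together. Another member was found within 1 kb of 33 of them, within 10 kb of 103 and within 100 kb of 187, and 498 genes were nearest to the 591 peaks. The spacing of all peaks was not measured, so these counts do not show whether members cluster more than peaks do. Genes with 5 or more members nearest to them were *Tmem17* (7), *Deptor* (6), *Tnfrsf8* (6) and *Jarid2* (5), listed after their values were seen. All 7 peaks at *Tmem17*, a protein of the ciliary transition zone, lay over 153881 bp of chromosome 11, with *Pou5f1*-KO differences of -1.37 to -2.68 and *Sox2*-KO differences of -0.24 to 0.32 in late ICM. None of them was called in morula or late morula, where the differences were -1.28 to 0.07 in late morula.

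At *Tnfrsf8*, the gene of the receptor CD30, 6 members within 23004 bp had -1.38 to -3.02 in *Pou5f1*-KO and -0.12 to 0.76 in *Sox2*-KO late ICM. The lowest value was 8116 bp upstream of the gene (chr4:145323181-145323380), where Ctrl and KO means were 5.02 and 2.00, and 4.67 and 4.55 in the *Sox2* line. None was called in late morula, with differences of -1.47 to 0.08.

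At *Deptor*, an inhibitor of mTOR, 3 members lay in introns and 3 within 13673 bp downstream, with differences down to -2.20 in *Pou5f1*-KO late ICM. Of these, 1 was called in late morula (chr15:55266722-55266921), with means of 3.84 in Ctrl and 2.39 in KO (-1.44 ± 0.37, adjusted p = 0.035, 0.4 without KO library 1). Upstream of *Jarid2*, a subunit of Polycomb complex PRC2, 5 members lay within 8380 bp. The one at chr13:44705650-44705849 had means of 4.20 in Ctrl and 2.67 in KO morula (-1.53, adjusted p = 0.049, 0.46 without KO library 3, 0.0092 without KO library 1) and 4.09 and 2.42 in late morula (-1.67 ± 0.38, adjusted p = 0.01, 0.24 without KO library 1). It was at 5.63 and 3.86 in late ICM, and in the *Sox2* line at 5.72 and 5.74.

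At a few members *Sox2*-KO went the other way. In late ICM, 8 were called higher in *Sox2*-KO, within *Egfr* (1.43), *Brms1l* (1.34), *Cdc14b* (1.37) and *Zfp385b* (1.30), 3326 bp downstream of *Gm21190* (1.21), 62957 bp upstream of *Gsap* (0.99), 87153 bp upstream of *Fn1* (1.41) and 128030 bp upstream of *Mex3c* (1.82), each with a *Pou5f1*-KO difference between -1.28 and -1.99. In early ICM the 2 were 901282 bp downstream of *Cdh18* (1.64) and 34569 bp downstream of *Trappc8* (1.43). The rule admitted all values above -0.3, and these are given as a description.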

How the data were processed

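After trimming (SeqPurge), the authors aligned the reads against mm10 using Bowtie2, discarded duplicates (Picard) and reads without a unique position, moved read ends to the Tn5 cut, called peaks with MACS2, merged summits found in at least 2 replicates and counted insertions in 200 bp windows with BEDTools. The deposited log2 values are the rlog of DESeq2 made by the authors from these counts, which scales for depth and shrinks weak peaks, so that differences at weak peaks are understated. The deposited group means equalled the means of the libraries to 4.3e-08. The counts were not used here, and the depth is unknown.

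Here the values of all 44 libraries were fitted with limma 3.58.1 in R 4.3.3 (lmFit, contrasts.fit, eBayes with a trend), with a mean per group, no covariate and no filter, 32 residual degrees of freedom and two-sided p-values adjusted by Benjamini-Hochberg over 152393 peaks. Calls are adjusted p-values below 0.05. On simulated data for *Pou5f1*-KO against Ctrl late morula, with normal noise at 152393 peaks, this fit called 1.69% of 59 peaks lowered by 1 on the log2 scale, 44.8% of 67 lowered by 2 and 89.2% of 74 lowered by 3, with 7 false calls. Errors are SE of a difference. Libraries share replicate numbers. Deviations from the group means of same-numbered KO and Ctrl libraries correlated at 0.109 to 0.192 in late morula and at 0.121 to 0.162 in *Pou5f1* early ICM. In morula they correlated at 0.0479 to 0.153. In each of these comparisons every same-numbered pair correlated above every other pair, so that the numbers may pair the samples there. In the other ICM comparisons same-numbered and other pairs overlapped. The pairing is read from the data, not stated in the labels.

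Members were found by the rule, and the members, gene lists, words and named peaks were chosen with earlier results of these data known. Peaks named are the 8 largest mean losses in *Pou5f1*-KO ICM without library overlap, up to 14 members near list genes, the 4 largest called differences in morula and in late morula, the 3 highest rlog means, the 5 closest composites and 4 members within 100 bp of a start site, not all of which are described. Annotation is GENCODE vM21 (the authors used vM23) with RefSeq gene bodies for comparison, and sequence is GRCm38.p6, both strands searched. Python 3.11.15, numpy 2.4.6, scipy 1.17.1, pandas 2.3.3 and matplotlib 3.10.9 were used.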

Additional observations from a re-analysis of the deposited data

How the results depend on the processing

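The number of peaks meeting the rule was 1100 at a *Pou5f1* threshold of -1, 241 at -1.5 and 219 with *Sox2* differences above 0, and 533 to 693 with 1 ICM library left out. Members called lower in *Pou5f1*-KO morula numbered 9 with only morula libraries in the fit, 37 after quantile normalization, 10 without a trend and 2 to 67 with 1 library left out, beside 0.0748%, 0.326%, 0.0814% and 0.00787% to 0.631% of all peaks. In late morula they numbered 52, 78 and 52 under the first 3 of these and 38 to 55 with 1 library left out, beside 0.438%, 0.686%, 0.441% and 0.198% to 0.357%. The block on replicate number gave 45 members (0.506% of all peaks) in morula, where the main fit gave 24 and every sample correlated best with its own number. It gave 90 (0.89%) in late morula, within 1.5 times the main count, and, chosen after seeing the data, 586 (6.79%) in early ICM. Quantile normalization gave 37 lower and 17 higher members from Ctrl morula to Ctrl late morula, beside 4.49% and 4.29% of all peaks, and 26 lower in *Pou5f1*-KO, beside 2.18%. Leaving out 1 library gave 3 to 16 and 3 to 9 in Ctrl, beside 1.24% to 2.06% and 1.61% to 3.17%, and 4 to 20 lower and 0 to 3 higher in KO, beside 0.308% to 1.38% and 0.373% to 1.48%. The 2 higher members in KO were 1 when weaker peaks (below the median level) were dropped and 1 without a trend. No member was called for a change of effect between the stages under any of these settings, the block, added after seeing the data, included, and no called difference of a named peak changed sign. With composites at 2 mismatches or fewer the share of members was 4.06% (1.19% of all peaks), in the central 100 bp 7.28% (3.57%), and 84.3% of members lay over 1 kb from a start site. Within 50 kb, 36 members lay near list genes, a count with no share of all peaks beside it. Within 10 kb, 18 did with RefSeq gene bodies, an alternative chosen after seeing the data. The shrinkage of rlog and the unknown depth limit what can be said of weak peaks, and 3 libraries per morula group limit the calls there.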
